A study of Mus musculus with 44 samples.

Results

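CD26-positive cancer-associated fibroblasts (CAFs) of WB1P-Myc mammary tumors were compared with CD26-positive normal fibroblasts (NFs) of control mammary glands, by bulk sequencing of mRNA from sorted cells. The comparison used 14 of 44 libraries and 8 of 13 mice: the counts of the CD26-positive sorts (CD26+ and CD26+ with the En1 lineage label, +/+) were summed for each mouse, which gave 5 WB1P-Myc mice from 8 libraries and 3 control mice from 6. CAFs of WB1P tumors without Myc, and the CD26-negative fibroblasts, served only where stated. Every mouse was a female EN1-Cre;mTmG recipient, bred from EN1-Cre mice crossed with mTmG mice of the FVB/n background, a reporter strain in which Cre expressed from the En1 gene permanently switches the membrane fluorescence of a cell and its progeny, so that tumor and control stroma shared the same host genotype. WB1P-Myc recipients carried mammary tissue of donors with WapCre, Brca1F/F and Trp53F/F and the allele Col1a1invCAG-Myc-IRES-Luc, in which Cre under the whey acidic protein promoter deletes Brca1 and Trp53 and switches on Myc in mammary epithelial cells. Control recipients carried tissue of Cdh1F/F;PtenF/F donors without WapCre, and their glands were matched to the tumors for age; the age at harvest is not given in the sources used here. The design thus placed the deletions and the active Myc transgene in the donor epithelium and not in the host stroma. The study found donor cells without epithelial markers in tumors grown from such transplants. Their presence in these sorts was not tested. The hosts kept their own mammary epithelium, and the control donors carried other floxed alleles than the tumor donors. The labels mark WB1P-Myc mice 23 and 69 as 8x8, a tumor size in the study's methods, and the control labels carry pairs of numbers (44/46, 49/52 and 82/83), each counted as 1 mouse. Fibroblasts were dissociated with collagenase and sorted as EpCAM-, CD49f-, CD31- and CD45- cells before the CD26 gate.

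CD26 is the cell surface peptidase encoded by Dpp4. In mammary gland and other organs it marks fibroblasts that carry progenitor genes such as Pi16 and Cd34. The study places CD26-positive fibroblasts around ducts and CD26-negative ones around lobules in human breast. It states that the mouse gland does not have this layout. CAFs are the fibroblasts of tumor stroma, where they lay down and crosslink collagen, remodel basement membrane, and secrete chemokines and growth factors.

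The summed libraries held 13478479 to 24000705 counts per WB1P-Myc mouse and 25193924 to 29498005 per control mouse, and the 10 most abundant genes took 9.72 to 14.6% and 8.54 to 11.5% of them. WB1P-Myc mice 67 and 95 gave the +/+ sort alone, so that their sums rest on 1 library each. Levels are given below as CPM, read counts scaled to a common library total, after TMM normalization, always in the mouse order 21, 23, 67, 69 and 95 for CAFs and 44/46, 49/52 and 82/83 for NFs. Differences were tested with edgeR's quasi-likelihood test across 16601 genes, with Benjamini-Hochberg adjusted p-values and a threshold of 0.05. "Rose" and "fell" are used of genes past it, and a log2 fold change is CAFs over NFs. A value in brackets "without" a mouse is the log2 fold change, or where so named the adjusted p, after that mouse was left out, and is given where it ends a call or moves it by over 1.5-fold.

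Dpp4 itself was present in every summed library. It had 612, 438, 298, 293 and 409 CPM in the CAFs and 510.5, 805 and 265 CPM in the NFs, against 2.21 to 15.3 CPM in the CD26-negative CAFs and 1.74 to 6.90 CPM in the CD26-negative NFs of the same mice. CAFs and NFs overlapped in Dpp4, which did not pass the test (log2 fold change -0.36, SE 0.57, adjusted p = 0.651). En1 was also measured in every mouse, with 22.5, 17.4, 11.2, 16.4 and 46.3 CPM in the CAFs and 12.7, 13.7 and 10.8 CPM in the NFs (log2 fold change 0.87, SE 0.44, adjusted p = 0.124). Of 14 fibroblast markers 5 rose and 0 fell (median 0.26), against 17.4% up and 17.3% down over all genes tested. Pdgfra, a receptor that defines mammary stroma, had 570.1 to 1202 CPM in the CAFs and 896 to 1032 CPM in the NFs (log2 fold change -0.15, SE 0.42, adjusted p = 0.810). Dcn, the collagen-binding proteoglycan decorin, had 2871 to 3503 against 3557 to 4061 CPM (log2 fold change -0.29, SE 0.33, adjusted p = 0.526). The markers that rose were S100a4, a calcium-binding protein (6.64, 7.41, 6.15, 5.68 and 7.33 against 0.644, 0.529 and 0.871 CPM; log2 fold change 3.28, SE 0.40, adjusted p = 6.80e-06), Pdpn, the membrane glycoprotein podoplanin (log2 fold change 1.64, SE 0.47, adjusted p = 0.0102), the matrix gene Fbln1 (log2 fold change 1.15, SE 0.35, adjusted p = 0.0143), Col1a1 and Col1a2. The calls of Pdpn (adjusted p = 0.0503) and Fbln1 (0.0585) were lost without control 44/46. Of the fibroblast markers, the number up was 2 without control 44/46 and 3 without control 49/52, and the number down was 1 without control 49/52.

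Compared with CD26-positive NFs, the CAFs had more genes higher than lower in several lists. Among these were collagen crosslinking enzymes, small proteoglycans, matricellular proteins, chemokines and cytokines with their receptors, cell cycle genes and glycolytic enzymes. More genes were lower than higher among basement membrane, lipid-handling and hormone receptor genes. The groups differed in 2886 genes that rose (17.4% of those tested) and 2864 that fell (17.3%). Past a log2 fold change of 2, 628 genes rose (3.78%) and 599 fell (3.61%). All 5 CAF mice lay above all 3 NF mice in 3026 genes (18.2%) and below them in 2995 (18.0%). The first principal component of the 500 most variable genes over the CD26-positive sums, WB1P CAFs included, held 57.8% of the variance and placed the NFs at -59.6 to -54.9 and the WB1P-Myc CAFs at 13.9 to 18.0. Over all genes the median log2 fold change was -0.009, which is the value each gene list below is set against. Without control 44/46 the counts past the adjusted p alone were 1936 up and 1802 down, which is the most that leaving out any mouse changed them.

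**Figure D1:**
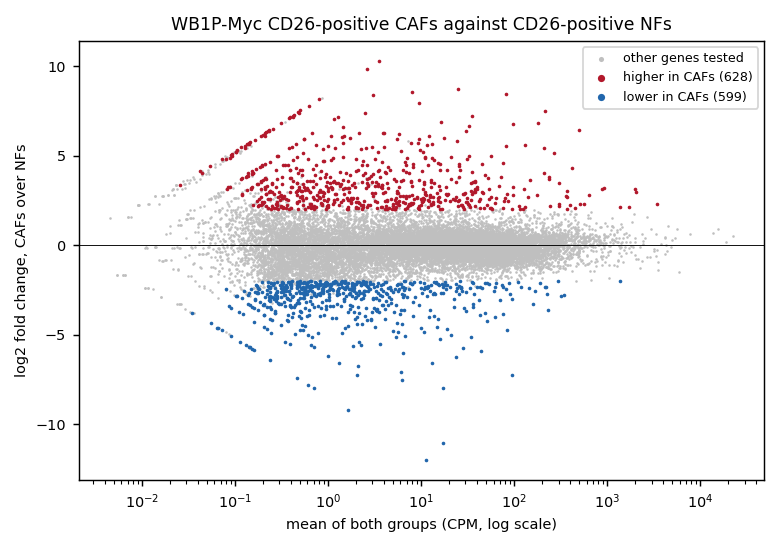
Log2 fold change of WB1P-Myc CD26-positive CAFs over CD26-positive NFs (y axis) against the mean of both groups in CPM (x axis, log scale) for the 16601 genes tested, with the 628 genes that rose and the 599 that fell past a log2 fold change of 2 in color. The median of all genes lies at -0.009.

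The 10 genes that rose most, among those at 10 CPM or more in either group and without overlap between the mice, are given first. Chl1, a neural cell adhesion molecule (ENSMUSG00000030077, GRCm38 chr6:103510586-103750211), had 501, 485, 506, 434 and 187 CPM in the CAFs and 2.80, 2.27 and 1.82 CPM in the NFs (log2 fold change 7.52, SE 0.91, adjusted p = 7.37e-06). Ltbp2, a microfibril protein of the latent TGF-beta binding family, had 80.7, 436, 473, 293 and 495 CPM against 2.61, 2.23 and 4.67 CPM (log2 fold change 6.81, SE 0.77, adjusted p = 3.96e-06). Tnfsf8, the membrane ligand of the TNF family receptor CD30, had 27.0, 22.3, 26.9, 50.2 and 35.4 CPM against 0.354, 0.227 and 0.198 CPM (log2 fold change 6.91, SE 0.66, adjusted p = 4.89e-07). In each of these 3 genes the lowest CAF mouse stood far above the highest NF mouse. Saa3, an acute-phase protein, had 59.1, 544, 40.0, 77.1 and 104 CPM in the CAFs, with the highest value in mouse 23, and 0.451, 0.302 and 0.634 CPM in the NFs (log2 fold change 8.47, SE 1.26, adjusted p = 6.09e-05; 7.22 without mouse 23). Cemip, a hyaluronan-degrading protein, had 121, 522, 133, 58.2 and 135 CPM against 2.03, 0.227 and 3.05 CPM (log2 fold change 6.77, SE 0.91, adjusted p = 2.15e-05; 5.98 without mouse 23 and 7.38 without control 82/83). Mmp13, the collagenase that cleaves fibrillar collagen, had 62.6, 7.55, 134, 91.2 and 52.5 CPM against 0.354, 0.0755 and 0.951 CPM (log2 fold change 7.25, SE 1.29, adjusted p = 0.000342; 8.25 without control 82/83). In both genes CAF mice differed from each other by several-fold. The lack of overlap with the NFs was a condition for being listed here. Ecrg4, which encodes a secreted peptide precursor, had 59.5, 12.2, 42.8, 132 and 78.7 CPM against 0.966, 0.340 and 0.594 CPM (log2 fold change 6.65, SE 0.72, adjusted p = 2.49e-06). Kcnj15, an inward rectifier potassium channel, had 9.07, 8.47, 14.4, 48.3 and 14.2 CPM against 0.129, 0.0755 and 0 CPM (log2 fold change 7.93, SE 1.16, adjusted p = 5.18e-05; 7.21 without mouse 69 and 8.75 without control 44/46). The NFs were close to 0 in Kcnj15, and mouse 69 was the highest CAF. Tnn, the matrix protein tenascin-W, had 23.3, 6.54, 16.9, 28.3 and 4.91 CPM in the CAFs and 3 counts over all 3 NF mice, a ratio of 468 with a 95% counting interval of 159.8 to 2271. Nos2, the inducible nitric oxide synthase, rested on a single mouse for its size: the CAFs had 2.25, 236, 3.39, 3.45 and 1.21 CPM and the NFs 0.0322, 0.151 and 0.158 CPM (log2 fold change 8.74, SE 2.02, adjusted p = 0.00260), and without mouse 23 the log2 fold change was 4.47.

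The 10 genes that fell most include a basement membrane laminin, a Wnt ligand and genes known from other cell types. Lamc3, a laminin gamma chain (ENSMUSG00000026840, GRCm38 chr2:31887291-31946539), had 0.281, 1.84, 1.20, 1.95 and 0.756 CPM in the CAFs and 199.5, 80.7 and 288 CPM in the NFs (log2 fold change -7.26, SE 0.74, adjusted p = 1.18e-06). Inmt, an amine methyltransferase, had 0, 0.0921, 0.283, 0.136 and 0.227 CPM against 41.9, 35.9 and 24.7 CPM (log2 fold change -7.96, SE 0.90, adjusted p = 3.96e-06). Fcgbp, a mucin-like IgG binding protein, had 0, 0.0460, 0, 0.0455 and 1.06 CPM against 14.0, 11.5 and 11.9 CPM (log2 fold change -6.00, SE 1.05, adjusted p = 0.000294; -8.66 without mouse 95). These 3 genes were expressed by all NF mice and were near 0 in most CAF mice. Col13a1, a transmembrane collagen, had 0.234, 0.736, 0.849, 1.05 and 0.151 CPM against 43.1, 5.44 and 90.6 CPM (log2 fold change -6.22, SE 0.90, adjusted p = 4.76e-05; -5.29 without control 82/83). Nos1, the neuronal nitric oxide synthase, had 0.281, 0.322, 0.354, 0.318 and 0 CPM against 32.1, 5.70 and 40.9 CPM (log2 fold change -6.59, SE 0.75, adjusted p = 4.07e-06). Map2, a microtubule-associated protein of dendrites, had 0.281, 1.43, 1.84, 1.86 and 1.89 CPM against 84.6, 7.33 and 167 CPM (log2 fold change -5.91, SE 0.77, adjusted p = 1.60e-05; -5.00 without control 82/83). In all 3 genes control 49/52 was the lowest NF mouse. Wnt9b, a Wnt ligand, had no count in any CAF mouse and 13.1, 0.189 and 54.5 CPM in the NFs, so that it was at least 665-fold lower in the CAFs, counted against 3 counts over the group (fitted log2 fold change, which depends on the prior count, -11.97, and -10.19 without control 82/83). Myh4, a fast skeletal muscle myosin, had 1 count over the 5 CAF mice and 40.0, 0.604 and 61.8 CPM in the NFs, a ratio of 3149 with a 95% counting interval of 565 to 124431. The milk caseins Csn2 and Csn1s1 had 34.5, 1.02 and 2.18 and 30.3, 1.51 and 4.48 CPM in the NFs and at most 0.276 and 0.322 CPM in a CAF mouse (log2 fold changes -7.51 and -7.08, adjusted p = 0.00631 and 0.00200). Both caseins were highest in control 44/46, and Csn2 lost its call without control 44/46 (adjusted p = 0.0997), with a log2 fold change of -4.53, while Csn1s1 then had -5.05. Without mouse 23 they had -11.13 and -9.28. The fitted log2 fold change of Myh4, which depends on the prior count, was -11.03, with -12.55 without mouse 23 and -10.27 without control 82/83.

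**Figure D2:**
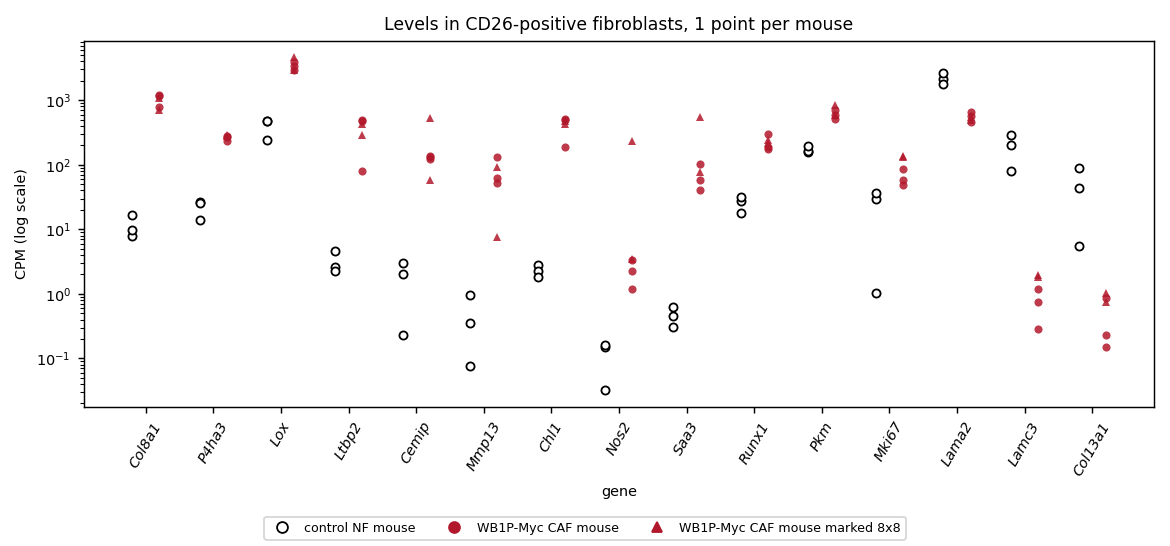
CPM in each mouse (y axis, log scale) for 15 genes picked among those whose groups do not overlap, with open circles for the 3 control mice, filled circles for the 3 WB1P-Myc mice without the 8x8 mark and triangles for the 2 mice with it. Of these, 12 lie higher in the CAFs, and Lama2, Lamc3 and Col13a1 lie lower.

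Extracellular matrix genes changed in both directions. Of 10 fibrillar collagens 3 rose and 2 fell (median log2 fold change 0.48), against 17.4% and 17.3% of all genes. Col1a1 and Col1a2, which form type I collagen, rose: Col1a1 had 20394, 28298, 16059, 21190.5 and 14159 CPM in the CAFs and 11588, 6293 and 14411 CPM in the NFs (log2 fold change 0.90, SE 0.27, adjusted p = 0.0144), and mouse 95 lay just below control 82/83. The call of Col1a1 was lost without control 49/52 (adjusted p = 0.0778), and that of Col1a2 (log2 fold change 0.69, SE 0.25, adjusted p = 0.0375) without mouse 21 (adjusted p = 0.0521), mouse 23 (0.0823), mouse 69 (0.0647), control 44/46 (0.0845) and control 49/52 (0.181). Col24a1, a minor fibrillar collagen, rose from 0.322, 0.264 and 1.11 to 21.4, 55.0, 5.73, 15.0 and 4.46 CPM (log2 fold change 5.19, SE 0.84, adjusted p = 0.000141; 4.38 without mouse 23 and 6.09 without control 82/83). Col27a1 fell, with 83.1, 81.2, 74.2, 84.9 and 61.5 against 194, 91.4 and 302 CPM (log2 fold change -1.35, SE 0.32, adjusted p = 0.00293). The call of Col27a1 was lost without control 82/83 (adjusted p = 0.0503). Col5a3 also fell (log2 fold change -0.76, SE 0.27, adjusted p = 0.0330). The call of Col5a3 was lost without mouse 67 (adjusted p = 0.0706), mouse 69 (0.0780), mouse 95 (0.0774), control 44/46 (0.0993) and control 82/83 (0.239). Col3a1, with 18131 to 33729.8 CPM in the CAFs and 12180.3 to 23544 CPM in the NFs, did not pass the test (log2 fold change 0.52, SE 0.25, adjusted p = 0.106; adjusted p = 0.0389 without mouse 95). With a mouse left out, the number up was 1 without control 49/52, and the number down was 0 without control 82/83 and 1 without mouse 67, 69 or 95 or control 44/46.

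Larger differences were found among the other collagens, of which 4 of 20 rose and 6 fell (median -0.33), against 17.4% and 17.3% of all genes. Col8a1, a short-chain collagen of vessel walls and scars (ENSMUSG00000068196, GRCm38 chr16:57624258-57754737), had 781, 713, 1186, 1092 and 1175 CPM in the CAFs against 7.92, 9.78 and 16.9 CPM in the NFs (log2 fold change 6.42, SE 0.56, adjusted p = 2.30e-07). Its partner chain Col8a2 had 17.2, 122, 115, 129 and 161 against 3.06, 1.47 and 5.78 CPM (log2 fold change 4.98, SE 0.79, adjusted p = 0.000119; 5.57 without control 82/83), with mouse 21 the lowest CAF. Col12a1, which decorates type I collagen fibrils, had 3253, 4404, 2862, 4132 and 3262 against 411, 171 and 775 CPM (log2 fold change 2.98, SE 0.58, adjusted p = 0.000746; 3.62 without control 82/83). In all 3 genes CAFs and NFs were apart. The fourth gene that rose was Col14a1, named here only to complete the count (log2 fold change 0.91, SE 0.34, adjusted p = 0.0437). Its call was lost without mouse 21 (adjusted p = 0.102), mouse 23 (0.0675), mouse 67 (0.0609), control 44/46 (0.108), control 49/52 (0.0713) and control 82/83 (0.111). Col18a1, a vascular and epithelial basement membrane collagen, fell, with 235, 320.4, 244, 338 and 249.6 against 1024, 416 and 1730.2 CPM (log2 fold change -1.93, SE 0.36, adjusted p = 0.000509). Col6a3, a chain of the beaded type VI collagen, had 2527 to 4704 CPM in the CAFs and 3769.9 to 6179.9 CPM in the NFs and did not pass (log2 fold change -0.34, SE 0.26, adjusted p = 0.313). After leaving out a mouse, the number down was 3 without control 82/83.

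Basement membrane genes fell more often than they rose: of 22 tested, 9 fell and 1 rose (median -0.75), against 17.3% and 17.4% of all genes. Lama2, the laminin alpha chain of mesenchymal basement membrane (ENSMUSG00000019899, GRCm38 chr10:26980036-27619758), had 568, 494, 464, 556 and 657 CPM in the CAFs and 2106, 1796 and 2674 CPM in the NFs (log2 fold change -2.00, SE 0.26, adjusted p = 1.67e-05). Col4a1, the main type IV collagen chain, had 1442, 2679.8, 1581, 2368 and 1695 against 5098, 3192 and 7183 CPM (log2 fold change -1.40, SE 0.30, adjusted p = 0.00135). Col4a3 had 0.327, 0.690, 0.283, 0.500 and 0.302 against 7.12, 9.40 and 6.58 CPM (log2 fold change -4.14, SE 0.73, adjusted p = 0.000318). Both groups were apart in each. Egflam, the matrix protein pikachurin, had 1.50, 8.42, 11.5, 12.2 and 15.4 against 139, 33.6 and 251 CPM, again with control 49/52 the lowest NF mouse (log2 fold change -3.86, SE 0.70, adjusted p = 0.000429; -3.15 without control 82/83). Nid1 and Hspg2, which encode nidogen and perlecan, did not pass (Nid1 log2 fold change -0.47, SE 0.21, adjusted p = 0.0790, with adjusted p = 0.0300 without mouse 21; Hspg2 log2 fold change -0.57, SE 0.28, adjusted p = 0.108, with adjusted p = 0.0385 without mouse 23). The gene that rose was Lama1, named to complete the count (log2 fold change 2.54, SE 0.68, adjusted p = 0.00678; 3.31 without control 44/46).

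Collagen processing and crosslinking genes moved in 1 direction, with 15 of 24 higher and 0 lower (median 0.82), against 17.4% and 17.3% of all genes. Lox, the lysyl oxidase that crosslinks collagen and elastin, had 3918, 4616, 2987, 2906 and 3384 CPM in the CAFs and 483, 243 and 478 CPM in the NFs (log2 fold change 3.15, SE 0.29, adjusted p = 2.97e-07). P4ha3, a subunit of collagen prolyl hydroxylase (ENSMUSG00000051048, GRCm38 chr7:100285520-100319699), had 269, 290.5, 237, 284 and 282 against 26.1, 13.7 and 25.9 CPM (log2 fold change 3.64, SE 0.24, adjusted p = 1.60e-09), the smallest adjusted p of all genes named here. Plod2, a lysyl hydroxylase, had 574, 643, 231, 353 and 459 against 132, 95.3 and 192 CPM (log2 fold change 1.69, SE 0.28, adjusted p = 0.000141). Pcolce, which speeds the trimming of procollagen, had 1079, 891, 1099.6, 1181 and 1029 against 424, 459 and 449.7 CPM (log2 fold change 1.25, SE 0.19, adjusted p = 8.11e-05). The 5 CAF mice were close to each other in Lox, P4ha3 and Pcolce, and all stood above the NFs. P4ha1, a paralog of P4ha3, overlapped between the groups and did not pass (log2 fold change 0.53, SE 0.24, adjusted p = 0.0882; adjusted p = 0.0431 without mouse 67 and 0.0455 without control 82/83).

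Of 23 small proteoglycan and elastic fibre genes 11 rose and 0 fell (median 1.02), against 17.4% and 17.3% of all genes. Bgn, the proteoglycan biglycan, had 5123, 5251, 5199, 6594 and 6307 CPM in the CAFs and 1179, 654 and 1659 CPM in the NFs (log2 fold change 2.29, SE 0.25, adjusted p = 2.88e-06). Efemp2, or fibulin-4, which recruits Lox to elastin, had 821, 637, 794, 639 and 561 against 201, 174 and 253 CPM (log2 fold change 1.72, SE 0.21, adjusted p = 6.86e-06). Fbln2 (log2 fold change 1.58, SE 0.26, adjusted p = 0.000172) and Eln, elastin itself (log2 fold change 1.28, SE 0.33, adjusted p = 0.00516), also rose, with 3677 to 4538 and 2103 to 3373 CPM over the CAF mice against 1299.9 to 1461 and 915 to 1240.0 CPM over the NF mice. Mfap4, a microfibril protein, had 389, 597, 531, 699.9 and 892 against 94.6, 31.1 and 152 CPM (log2 fold change 2.75, SE 0.46, adjusted p = 0.000193). Fbn1, the microfibril scaffold fibrillin-1, had 7291 to 11491 against 5457 to 6558 CPM without overlap but missed the threshold (log2 fold change 0.65, SE 0.26, adjusted p = 0.0563; adjusted p = 0.0449 without mouse 69 and 0.0432 without mouse 95).

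Among 22 genes listed as matricellular proteins, 9 rose and 1 fell (median 0.81), against 17.4% and 17.3% of all genes. The list also holds structural matrix proteins such as fibronectin. Cthrc1, a secreted protein of repair and tumor stroma, had 511, 530.0, 438, 360.5 and 342 CPM in the CAFs and 41.7, 9.89 and 48.9 CPM in the NFs (log2 fold change 3.70, SE 0.44, adjusted p = 6.79e-06). Thbs4, a thrombospondin of tendon, had 273, 299, 351, 738 and 947 against 6.12, 21.5 and 17.1 CPM (log2 fold change 5.13, SE 0.98, adjusted p = 0.000658). Spp1, osteopontin, had 91.5, 74.1, 459, 52.3 and 116 against 2.74, 4.72 and 2.57 CPM, with mouse 67 highest (log2 fold change 5.57, SE 0.90, adjusted p = 0.000141; 4.62 without mouse 67). Ccn2, a target of TGF-beta and YAP, had 415, 438, 782, 425 and 714 against 25.1, 17.3 and 106 CPM (log2 fold change 3.48, SE 0.54, adjusted p = 8.57e-05; 4.71 without control 82/83). CAFs and NFs were apart in these 4 genes. Tnc, tenascin-C, had 2149.6, 2095, 3327, 2119.7 and 1614 CPM in the CAFs and an uneven 383, 9.37 and 1124 CPM in the NFs (log2 fold change 2.16, SE 0.80, adjusted p = 0.0408; 3.53 without control 82/83). Its call was lost without mouse 21 (adjusted p = 0.0554), mouse 23 (0.0553), mouse 67 (0.0718), mouse 69 (0.0575) and control 44/46 (0.138). Fn1, Postn and Thbs1, which encode fibronectin, periostin and thrombospondin-1, did not pass (log2 fold changes 0.19, 0.41 and 0.09, adjusted p = 0.651, 0.272 and 0.878). Postn passed when 1 control was left out (adjusted p = 0.0217 without control 82/83). The gene that fell was Sparcl1, named to complete the count, with 32.1, 35.4, 83.8, 161 and 124 against 578, 586 and 618 CPM (log2 fold change -2.77, SE 0.62, adjusted p = 0.00199).

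Matrix proteases and their inhibitors gave 8 up and 6 down of 35 (median 0.08), shares near the 17.4% and 17.3% over all genes. Besides Mmp13, the gelatinase Mmp9 rose from 0.773, 0.264 and 1.11 CPM in the NFs to 4.72, 35.1, 139.7, 13.9 and 105 CPM in the CAFs, with a wide spread among the CAF mice (log2 fold change 6.37, SE 1.11, adjusted p = 0.000281; 5.76 without mouse 67). Serpine2, an inhibitor of thrombin and urokinase, had 337, 243, 311, 220.2 and 439 against 35.4, 42.6 and 55.0 CPM (log2 fold change 2.81, SE 0.36, adjusted p = 1.25e-05). Mmp23 rose within a narrow spread, 144 to 162 against 67.5 to 80.6 CPM (log2 fold change 1.05, SE 0.20, adjusted p = 0.000665). The gelatinase Mmp2 (log2 fold change 0.07, SE 0.23, adjusted p = 0.830) and the stromelysin Mmp3 (log2 fold change 1.07, SE 0.62, adjusted p = 0.178) did not pass. Hyaluronan genes gave 2 up and 1 down of 15 (median -0.03, and 0.00 with genes at 0 in a group set to their bound). Cemip rose, as did the hyaluronan receptor Cd44, with 1448, 892, 454, 603 and 1177 against 268, 213 and 485 CPM (log2 fold change 1.51, SE 0.47, adjusted p = 0.0177). The call of Cd44 was lost without control 44/46 (adjusted p = 0.0781) and control 49/52 (0.0869). Has2, the main hyaluronan synthase, did not pass (log2 fold change -0.13, SE 0.30, adjusted p = 0.758). The number of members up was 1 without control 44/46 or 49/52, and the number down was 0 without control 82/83 and 3 without mouse 21.

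Of 23 contractile genes of myofibroblasts 4 rose and 2 fell (median 0.10), against 17.4% up and 17.3% down over all genes, so that the share up was that of the background. Acta2, smooth muscle actin, had 113, 199, 250.0, 118 and 243 CPM in the CAFs and 44.2, 4.19 and 73.6 CPM in the NFs (log2 fold change 2.18, SE 0.58, adjusted p = 0.00654; 2.93 without control 82/83). Actn1, an actin crosslinker, had 141, 257, 243, 211 and 208 against 47.9, 12.4 and 85.8 CPM (log2 fold change 2.12, SE 0.39, adjusted p = 0.000408; 2.81 without control 82/83). Control 49/52 lay below the other NF mice in both genes, and every CAF mouse lay above all NFs. Tagln did not pass (log2 fold change 1.47, SE 0.62, adjusted p = 0.0699; adjusted p = 0.0479 without mouse 21 and 0.00827 without control 82/83), nor did Myl9 (log2 fold change -0.19, SE 0.23, adjusted p = 0.538). Myh11, a myosin of vascular smooth muscle, fell, with 0.374, 0.828, 0.424, 0.545 and 0.227 against 7.37, 4.08 and 5.86 CPM (log2 fold change -3.52, SE 0.51, adjusted p = 5.08e-05). Leaving out mice, the number up was 2 without control 44/46 and 9 without control 82/83.

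**Figure D3:**
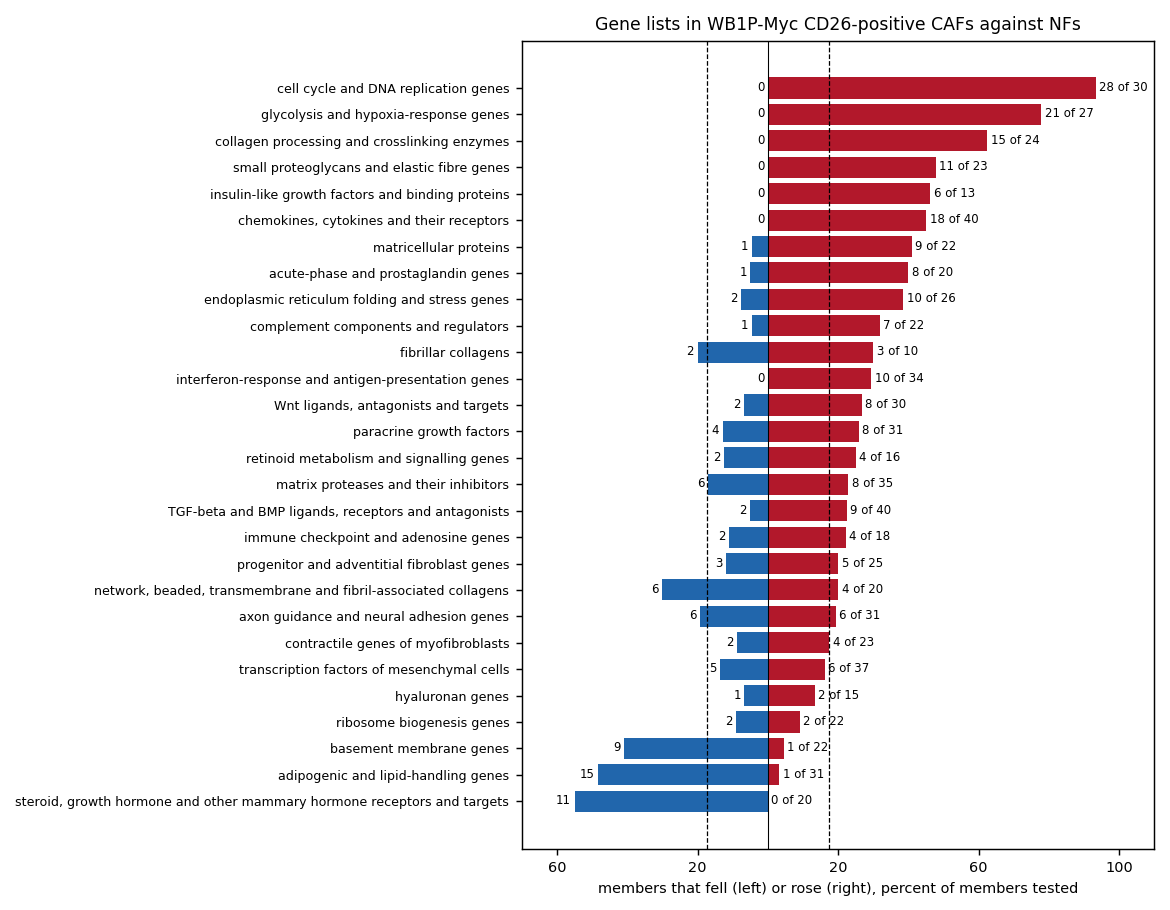
Share of the tested members of each of 28 gene lists that rose (right) or fell (left) in WB1P-Myc CD26-positive CAFs, in percent of the members tested, with the numbers of members at the bar ends. Dashed lines mark the shares over all genes, 17.4% up and 17.3% down; cell cycle and glycolysis genes reach the highest shares up, and hormone receptor and adipogenic genes the highest shares down.

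Cell cycle genes rose in the largest share of members of all lists. Of 30 tested, 28 rose and 0 fell, against 17.4% and 17.3% of all genes. Their median log2 fold change was 1.86, against -0.009 over all genes. Cdc20, an activator of the anaphase-promoting complex, had 13.9, 34.6, 23.8, 38.5 and 24.0 CPM in the CAFs and 4.31, 0.906 and 7.49 CPM in the NFs (log2 fold change 2.67, SE 0.51, adjusted p = 0.000621; 3.35 without control 82/83). Ccnb2, a mitotic cyclin, had 20.3, 38.2, 22.2, 39.5 and 32.0 against 5.09, 1.70 and 9.27 CPM (log2 fold change 2.51, SE 0.44, adjusted p = 0.000264; 3.15 without control 82/83). Plk1, a mitotic kinase, had 10.8, 24.8, 15.6, 30.0 and 16.9 against 3.28, 1.32 and 3.76 CPM (log2 fold change 2.81, SE 0.50, adjusted p = 0.000311). The CAF mice lay above the NFs throughout, mice 23 and 69 were the highest CAFs in each, and control 49/52 was the lowest NF. Birc5 (log2 fold change 2.56, SE 0.45, adjusted p = 0.000296) and Cdk1 (log2 fold change 2.49, SE 0.76, adjusted p = 0.0151; 3.15 without control 82/83) also rose, with 17.7, 45.8, 27.0, 49.6 and 34.2 against 7.66, 0.113 and 10.8 CPM for Cdk1. Mki67, which encodes the proliferation antigen Ki-67, had 48.2, 133, 58.7, 136 and 85.7 against 29.9, 1.02 and 36.6 CPM (log2 fold change 2.04, SE 0.72, adjusted p = 0.0338). Top2a, a topoisomerase of dividing cells, had 51.9, 128, 76.4, 155 and 89.4 against 30.6, 1.32 and 44.4 CPM (log2 fold change 1.98, SE 0.69, adjusted p = 0.0306; 2.64 without control 82/83). The call of Mki67 was lost without mouse 23 (adjusted p = 0.0653), mouse 69 (0.0679) and control 44/46 (0.0634), and that of Top2a without mouse 23 (adjusted p = 0.0548), mouse 69 (0.0656) and control 44/46 (0.0687). The members that did not pass were Pcna, the sliding clamp of DNA replication (53.6 to 80.9 against 73.2 to 91.4 CPM; log2 fold change -0.17, SE 0.17, adjusted p = 0.466), and the helicase subunit Mcm5, named to complete the count (log2 fold change 0.95, SE 0.48, adjusted p = 0.124; adjusted p = 0.0482 without control 82/83). Without the 8x8 mice the number that rose was 13. The summed level of the list was 569 to 1291 CPM over the CAF mice and 193 to 512 CPM over the NF mice.

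For 3 members of the list the bases before the start of the gene are printed because the genes moved together and these stretches hold TTTGAA, the core of the cell cycle homology region found at many mitotic genes. They are the 150 bases before the RefSeq start, 5′ to 3′ on the strand of the gene, from assembly GRCm38.p6, with TTTGAA or its reverse complement in capitals. Mki67 lies on chromosome 7 (chr7:135716380-135716529, minus strand), Top2a on chromosome 11 (chr11:99024190-99024339, minus strand) and Cdk1 on chromosome 10 (chr10:69352913-69353062, minus strand).
Mki67: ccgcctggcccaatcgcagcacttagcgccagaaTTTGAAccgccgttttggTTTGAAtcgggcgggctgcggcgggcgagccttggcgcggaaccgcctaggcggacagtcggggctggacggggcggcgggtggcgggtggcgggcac
Top2a: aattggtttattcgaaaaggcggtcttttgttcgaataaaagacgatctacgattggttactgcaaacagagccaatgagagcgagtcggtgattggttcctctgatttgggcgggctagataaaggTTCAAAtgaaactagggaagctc
Cdk1: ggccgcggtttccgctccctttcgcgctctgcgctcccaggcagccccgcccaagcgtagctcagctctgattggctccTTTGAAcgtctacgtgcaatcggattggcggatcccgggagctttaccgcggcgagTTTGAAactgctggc
Counted from the start, the matches began at -116 and -98 in Mki67, at -23 in Top2a and at -71 and -15 in Cdk1. In the 250 bases before the start, searched on both strands, 9 of 25 windows of the list held the motif (36.0%, for 24 of 30 listed genes with a RefSeq window), against 16.0% of all 32851 windows. A match of letters is a description and says nothing of a factor's binding here.

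Glycolysis and hypoxia-response genes followed: of these, 21 of 27 rose and 0 fell (median 1.42), against 17.4% and 17.3% of all genes. Pkm, pyruvate kinase (ENSMUSG00000032294, GRCm38 chr9:59656368-59679375), had 717, 837, 587, 586 and 518 CPM in the CAFs and 158, 166 and 195 CPM in the NFs (log2 fold change 1.91, SE 0.20, adjusted p = 1.21e-06). Eno1, enolase, had 451, 553, 390.5, 277 and 303 against 77.9, 81.8 and 94.9 CPM (log2 fold change 2.22, SE 0.26, adjusted p = 4.30e-06). Pgk1, phosphoglycerate kinase, had 222, 245, 142, 130.4 and 117 against 45.6, 39.4 and 64.5 CPM (log2 fold change 1.78, SE 0.28, adjusted p = 9.32e-05). In these 3 enzymes the NFs were within a narrow range, all CAFs lay above it, and mouse 23 was the highest. Gapdh, often used as a reference gene, also rose (213 to 359 against 84.6 to 110.0 CPM; log2 fold change 1.55, SE 0.22, adjusted p = 3.17e-05). The glucose transporter Slc2a1 had 208, 203, 102, 119 and 239.7 against 52.9, 57.7 and 84.1 CPM (log2 fold change 1.42, SE 0.29, adjusted p = 0.00103). Pgam1, phosphoglycerate mutase, had 68.6, 80.0, 59.0, 51.0 and 47.3 against 24.2, 21.2 and 30.9 CPM (log2 fold change 1.27, SE 0.17, adjusted p = 1.75e-05). Ldha, lactate dehydrogenase A, had 690.1, 770.0, 516, 444 and 493 against 248, 216 and 383 CPM (log2 fold change 1.05, SE 0.22, adjusted p = 0.00125). Hexokinase 2, Hk2, did not follow: its CAF mice ranged from 194 to 1008 CPM around the NFs at 521 to 869.8 CPM (log2 fold change 0.02, SE 0.42, adjusted p = 0.979). Vegfa, a hypoxia target and angiogenic ligand, did not pass either (log2 fold change 0.25, SE 0.37, adjusted p = 0.632). Leaving out any mouse left between 18 and 21 members up. Eno1, Gapdh and Pgk1 have processed pseudogenes and close copies, so their counts are uncertain by what the counting assigned to those.

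The stretches before Slc2a1, Pgk1 and Pgam1 are shown for the same reason, with ACGTG, the core of the hypoxia response element, or its reverse complement in capitals. Their 150 bases lie at chr4:119108595-119108744, chrX:106186950-106187099 and chr19:41911721-41911870 (GRCm38.p6, RefSeq, plus strand for all).
Slc2a1: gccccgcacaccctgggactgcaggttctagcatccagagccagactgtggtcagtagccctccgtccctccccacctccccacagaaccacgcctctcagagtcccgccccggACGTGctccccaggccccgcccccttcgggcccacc
Pgk1: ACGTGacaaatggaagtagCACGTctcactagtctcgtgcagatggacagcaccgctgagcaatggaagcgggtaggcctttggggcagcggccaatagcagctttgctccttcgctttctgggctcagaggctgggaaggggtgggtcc
Pgam1: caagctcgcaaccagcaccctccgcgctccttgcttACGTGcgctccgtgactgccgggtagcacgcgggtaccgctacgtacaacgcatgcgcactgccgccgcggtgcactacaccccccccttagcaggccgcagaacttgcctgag
The matches began at -36 in Slc2a1, at -150 and -131 in Pgk1 and at -114 in Pgam1. Over 250 bases and both strands, 14 of 33 windows of the list held ACGTG (42.4%, 25 of 27 genes matched), against 16.6% of all windows. The E-box CACGTG, which contains those letters, was in 3 of the 33 windows (9.09%) and in 6.02% of all.

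**Figure D4:**
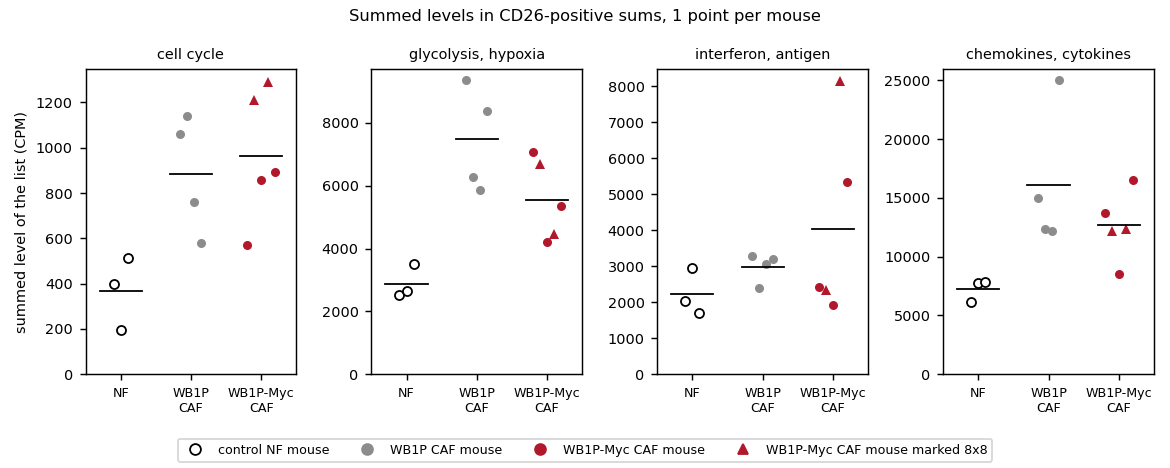
Summed CPM of 4 gene lists in each mouse (y axis from 0), for control CD26-positive NFs (open), WB1P CD26-positive CAFs (grey) and WB1P-Myc CD26-positive CAFs (filled, triangles for the 8x8 mark), with a bar at each group mean. Cell cycle sums were 193 to 512 CPM in the NFs and 569 to 1291 CPM in the WB1P-Myc CAFs, and the interferon sum was highest in mouse 69 at 8142 CPM.

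Interferon-response and antigen-presentation genes rose unevenly over the mice. They gave 10 up and 0 down of 34 (median 1.18), against 17.4% and 17.3% of all genes. Isg15, a ubiquitin-like interferon target, had 16.9, 35.6, 10.5, 203 and 96.9 CPM in the CAFs and 5.86, 11.2 and 7.17 CPM in the NFs (log2 fold change 3.17, SE 0.87, adjusted p = 0.00830; 2.31 without mouse 69). Ifi44 had 2.43, 4.79, 0.707, 92.2 and 19.9 against 0.386, 0.567 and 0.0792 CPM (log2 fold change 6.09, SE 1.47, adjusted p = 0.00353; 4.29 without mouse 69). Rsad2, the antiviral protein viperin, had 1.68, 5.20, 1.20, 126 and 17.6 against 1.77, 1.32 and 0.792 CPM (log2 fold change 4.54, SE 1.34, adjusted p = 0.0125; 2.29 without mouse 69). Irf7, a transcription factor of the response, had 49.1, 59.4, 21.4, 572 and 183 against 12.4, 29.3 and 13.6 CPM (log2 fold change 3.26, SE 1.01, adjusted p = 0.0164; 2.08 without mouse 69). Mouse 69 was the highest and mouse 95 the next in all 4, while mouse 67 lay in the NF range in Isg15, Rsad2 and Irf7 and mouse 21 in Rsad2. All CAF mice lay above all NF mice in 2 of the 34 members, against 18.2% of all genes. The call of Rsad2 was lost without mouse 69 (adjusted p = 0.0512) and control 82/83 (0.0539), and that of Irf7 without control 44/46 (adjusted p = 0.0783) and control 82/83 (0.0660). H2-K1, a class I antigen-presenting molecule, did not pass (log2 fold change 0.63, SE 0.39, adjusted p = 0.217). With a mouse left out, the number up was 2 without control 82/83 and 3 without mouse 69 or control 44/46. Without the 8x8 mice the count was 2.

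The 150 bases before Isg15 and Rsad2 (chr4:156200819-156200968 and chr12:26456453-26456602, GRCm38.p6, RefSeq, minus strand for both) are given with GAAANNGAA, a shortened form of the interferon-stimulated response element, or its reverse complement in capitals.
Isg15: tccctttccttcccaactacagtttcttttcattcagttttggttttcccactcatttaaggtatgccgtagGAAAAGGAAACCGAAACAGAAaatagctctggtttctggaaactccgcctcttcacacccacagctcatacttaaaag
Rsad2: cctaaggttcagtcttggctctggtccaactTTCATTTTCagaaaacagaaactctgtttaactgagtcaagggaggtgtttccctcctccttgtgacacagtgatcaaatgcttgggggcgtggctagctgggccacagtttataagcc
In Isg15 3 overlapping matches began at -78, -72 and -66 from the start, and in Rsad2 the match on the other strand began at -119. Of the list's windows 10 of 29 held the motif (34.5%, 24 of 34 genes matched), against 7.13% of all windows.

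Of 40 chemokines, cytokines and their receptors 18 rose and 0 fell (median 1.20), against 17.4% and 17.3% of all genes. Cxcl14, a chemokine of epithelium and stroma, had 242, 429, 913, 863 and 784 CPM in the CAFs and 86.2, 56.6 and 159 CPM in the NFs (log2 fold change 2.68, SE 0.50, adjusted p = 0.000516). Tnfrsf11b, the decoy receptor osteoprotegerin, had 109, 146, 222, 72.1 and 129 against 11.1, 5.63 and 12.5 CPM (log2 fold change 3.80, SE 0.70, adjusted p = 0.000467). Its ligand Tnfsf11, known as RANKL, had 6.08, 3.50, 12.2, 5.91 and 5.74 against 0.419, 0.0378 and 0.634 CPM (log2 fold change 4.18, SE 0.57, adjusted p = 2.25e-05; 4.78 without control 82/83). Il13ra2, a decoy receptor for IL-13, had 3.37, 14.8, 6.86, 7.45 and 7.10 against 0.354, 0.453 and 0.634 CPM (log2 fold change 4.04, SE 0.74, adjusted p = 0.000427). In these genes no CAF mouse overlapped the NFs. Ccl2, a monocyte chemoattractant, had 1658, 1200.5, 596, 1317 and 1839 against 421, 587 and 681 CPM (log2 fold change 1.23, SE 0.48, adjusted p = 0.0495). Its call was lost without mouse 21 (adjusted p = 0.0881), mouse 23 (0.0615), mouse 69 (0.0593), mouse 95 (0.0851), control 44/46 (0.164), control 49/52 (0.107) and control 82/83 (0.0781). Il6, Cxcl1 and Cxcl12 were abundant in both groups and did not pass. Il6 had 525, 533, 234, 404 and 1042 against 183, 274 and 273 CPM (log2 fold change 1.17, SE 0.49, adjusted p = 0.0692; adjusted p = 0.0300 without mouse 67). Cxcl1 was at a log2 fold change of 1.10 (adjusted p = 0.0562; adjusted p = 0.0411 without mouse 67) and Cxcl12 at 0.99 (adjusted p = 0.151). After leaving out a mouse, the number up was 11 without control 44/46, and the number down was 1 without mouse 21 or control 82/83. Without the 8x8 mice 12 rose.

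Of 20 acute-phase and prostaglandin genes 8 rose and 1 fell (median 0.89), against 17.4% and 17.3% of all genes. Besides Saa3, Hp, the hemoglobin-binding protein haptoglobin, had 15.1, 42.7, 15.3, 12.6 and 19.8 CPM in the CAFs and 0.644, 0.755 and 0.673 CPM in the NFs (log2 fold change 4.92, SE 0.78, adjusted p = 0.000111). Steap4, a metalloreductase, had 268, 377, 159.7, 254 and 201 against 78.4, 78.2 and 81.0 CPM (log2 fold change 1.67, SE 0.41, adjusted p = 0.00375). Nfkbiz, a regulator of NF-kappaB targets, rose within a narrower range (627 to 964 against 221 to 425 CPM; log2 fold change 1.19, SE 0.26, adjusted p = 0.00187). Ptgs2, cyclooxygenase-2, did not pass (log2 fold change 0.84, SE 0.46, adjusted p = 0.154). The gene that fell was Slco2a1, a prostaglandin transporter named to complete the count (log2 fold change -1.73, SE 0.52, adjusted p = 0.0141; -1.0029 without control 82/83). The call of Slco2a1 was lost without control 82/83 (adjusted p = 0.173). The number of members up was 5 without control 44/46, and the number down was 0 without control 82/83.

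Of 22 complement genes 7 rose and 1 fell (median 0.31), against 17.4% and 17.3% of all genes. Cfb, which forms the alternative pathway convertase, had 12.7, 14.3, 10.2, 20.7 and 14.2 CPM in the CAFs and 1.22, 1.55 and 0.753 CPM in the NFs (log2 fold change 3.61, SE 0.64, adjusted p = 0.000314). Masp1, a lectin pathway protease, had 56.6, 39.5, 93.0, 150.4 and 70.7 against 7.37, 10.2 and 14.6 CPM (log2 fold change 2.94, SE 0.56, adjusted p = 0.000647). Cfi, a protease that degrades C3b, had 4.72, 5.15, 8.56, 7.36 and 3.10 against 0.354, 0.378 and 0.357 CPM (log2 fold change 3.97, SE 0.82, adjusted p = 0.00112). CAFs and NFs were apart in all 3. C4b had 3517, 1993, 2670.2, 3309.8 and 2559.9 against 439.8, 1109.8 and 355 CPM (log2 fold change 2.15, SE 0.76, adjusted p = 0.0339; 2.84 without control 49/52) and lost its call without mouse 21 (adjusted p = 0.0564), mouse 67 (0.0536), control 44/46 (0.122) and control 82/83 (0.113); mouse C4b and C4a share nearly the same sequence, so reads may be split between them. C3, the central component, overlapped between the groups (log2 fold change 0.29, SE 0.64, adjusted p = 0.756). The gene that fell was Cfp, properdin (log2 fold change -1.09, SE 0.27, adjusted p = 0.00456). Leaving out mice, the number up was 4 without control 44/46 or 82/83, and the number down was 2 without mouse 69.

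Ligands of growth factor pathways gave 8 up and 4 down of 31 (median 0.60), against 17.4% and 17.3% of all genes. Nrg1, a ligand of ERBB receptors, had 33.6, 36.9, 21.5, 40.5 and 36.4 CPM in the CAFs and 4.22, 1.36 and 4.99 CPM in the NFs (log2 fold change 3.26, SE 0.42, adjusted p = 1.26e-05). Pdgfa had 10.4, 5.25, 10.3, 5.00 and 18.4 against 0.966, 0.680 and 2.18 CPM (log2 fold change 2.95, SE 0.59, adjusted p = 0.000899; 3.56 without control 82/83). Angpt4, a ligand of the Tie2 receptor, had 10.7, 6.72, 7.92, 4.09 and 10.4 against 0.741, 1.06 and 0.277 CPM (log2 fold change 3.51, SE 0.63, adjusted p = 0.000363). Another Tie2 ligand moved the other way: Angpt2 fell, with 0.702, 1.66, 0.778, 1.36 and 0.453 against 37.6, 8.42 and 120.3 CPM (log2 fold change -5.75, SE 0.74, adjusted p = 1.33e-05; -4.49 without control 82/83). Fgf7, a keratinocyte growth factor, rose (log2 fold change 1.59, SE 0.57, adjusted p = 0.0352). The call of Fgf7 was lost without mouse 23 (adjusted p = 0.0763), mouse 67 (0.0529), control 44/46 (0.0899) and control 82/83 (0.126). Hgf, the ligand of Met, fell (log2 fold change -1.06, SE 0.37, adjusted p = 0.0296). The call of Hgf was lost without mouse 67 (adjusted p = 0.0634), mouse 69 (0.0617), control 44/46 (0.0781) and control 82/83 (0.245). With a mouse left out, the number up was 4 without control 44/46 and 5 without control 82/83, and the number down was 1 without control 44/46 and 2 without control 82/83.

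Insulin-like growth factor genes gave 6 up and 0 down of 13 (median 1.10), against 17.4% and 17.3% of all genes. Pappa, a protease that frees IGF from its binding proteins, had 19.5, 14.8, 14.5, 28.1 and 22.8 CPM in the CAFs and 3.16, 1.13 and 6.26 CPM in the NFs (log2 fold change 2.51, SE 0.52, adjusted p = 0.00116; 3.20 without control 82/83). Igfbp7 (625, 438, 786, 585 and 969 against 269, 195 and 375 CPM; log2 fold change 1.28, SE 0.29, adjusted p = 0.00215) and Igfbp3 (321, 162, 176, 1112 and 754 against 89.1, 124 and 91.9 CPM; log2 fold change 2.31, SE 0.62, adjusted p = 0.00735) rose, the latter most in mice 69 and 95. Igf1 itself did not pass (log2 fold change 1.11, SE 0.49, adjusted p = 0.0815). After leaving out a mouse, the number up was 3 without control 44/46, and the number down was 1 without control 82/83.

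In the TGF-beta and BMP list 9 of 40 rose and 2 fell (median 0.25), against 17.4% and 17.3% of all genes. Inhbb, the activin beta B subunit, had 34.0, 33.4, 30.5, 22.4 and 20.3 CPM in the CAFs and 2.58, 3.29 and 2.73 CPM in the NFs (log2 fold change 3.29, SE 0.40, adjusted p = 7.10e-06). Fstl1, a follistatin-like secreted protein, had 7578, 6247, 5931, 5214 and 5759 against 2813, 2837 and 3062 CPM (log2 fold change 1.08, SE 0.17, adjusted p = 9.87e-05). The BMP antagonist Grem1 had 0.889, 0.598, 2.69, 8.18 and 9.07 against 0.0322, 0.113 and 0 CPM (log2 fold change 6.30, SE 1.31, adjusted p = 0.00118; 7.51 without control 49/52) and the receptor Bmpr1b 3.27, 1.93, 4.03, 4.45 and 2.65 against 0.193, 0 and 0.753 CPM (log2 fold change 3.38, SE 0.59, adjusted p = 0.000281; 4.92 without control 82/83). CAF and NF mice did not overlap in these 4 genes. The pair that fell were BMP ligands, named to complete the count, Bmp7 (7.44, 8.38, 3.96, 4.32 and 6.88 against 57.2, 108 and 35.3 CPM; log2 fold change -3.43, SE 0.61, adjusted p = 0.000351) and Bmp5 (log2 fold change -2.98, SE 0.66, adjusted p = 0.00190). Tgfb1 (log2 fold change 0.64, SE 0.42, adjusted p = 0.243, with adjusted p = 0.0139 without control 82/83) and Bmp4 (log2 fold change -1.58, SE 0.66, adjusted p = 0.0663, with adjusted p = 0.0325 without control 82/83) overlapped and did not pass.

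Of the 30 genes tested in the Wnt list, 8 rose and 2 fell (median 0.12), against 17.4% and 17.3% of all genes. The list does not hold Wnt9b. Wnt9a, a ligand, had 157, 74.3, 60.1, 103 and 149 CPM in the CAFs and 15.0, 22.1 and 15.6 CPM in the NFs (log2 fold change 2.63, SE 0.40, adjusted p = 6.65e-05). The antagonists Sfrp1 (379, 393, 542, 508 and 473 against 129, 127 and 157 CPM; log2 fold change 1.74, SE 0.37, adjusted p = 0.00148) and Dkk2 (132, 32.7, 94.2, 102 and 105 against 15.0, 22.0 and 9.19 CPM; log2 fold change 2.60, SE 0.42, adjusted p = 0.000141) rose with it, without overlap of the groups. The members that fell were Rspo1, an agonist that binds LGR receptors (0.608, 0.368, 0.707, 1.77 and 1.21 against 6.21, 2.68 and 10.2 CPM; log2 fold change -2.77, SE 0.53, adjusted p = 0.000680), and Wnt5a (log2 fold change -1.15, SE 0.33, adjusted p = 0.0108), whose call was lost without control 44/46 (adjusted p = 0.0571) and control 49/52 (0.0670). The number of members up was 5 without control 44/46, 49/52 or 82/83, and the number down was 1 without control 44/46 and 4 without mouse 95.

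Axon guidance and neural adhesion genes gave 6 up and 6 down of 31 (median -0.12), also near the 17.4% and 17.3% over all genes. Beside Chl1, Ncam1 had 64.0, 81.0, 57.1, 101 and 98.0 CPM in the CAFs and 9.85, 7.59 and 13.4 CPM in the NFs (log2 fold change 2.96, SE 0.28, adjusted p = 4.72e-07). Plxna4, a semaphorin receptor, had 28.1, 46.2, 31.0, 69.1 and 29.9 against 1.26, 1.36 and 1.35 CPM (log2 fold change 4.95, SE 0.51, adjusted p = 1.53e-06). Robo2, a Slit receptor, fell, with 1.26, 1.98, 1.13, 1.14 and 1.51 against 29.6, 6.68 and 32.3 CPM (log2 fold change -4.02, SE 0.47, adjusted p = 5.64e-06). No mouse overlapped in these genes.

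Retinoid genes gave 4 up and 2 down of 16 (median 0.33), against 17.4% and 17.3% of all genes. Aldh1a2, which makes retinoic acid, had 10.5, 7.32, 22.1, 10.8 and 40.3 CPM in the CAFs and 0.0644, 0.151 and 0.832 CPM in the NFs (log2 fold change 5.73, SE 0.94, adjusted p = 0.000156; 7.35 without control 82/83). Rarb, a receptor and target of retinoic acid, fell (2.85, 3.22, 1.13, 3.86 and 1.97 against 9.08, 13.3 and 6.22 CPM; log2 fold change -1.85, SE 0.42, adjusted p = 0.00231). Leaving out mice, the number up was 2 without mouse 21 or control 44/46 or 49/52, and the number down was 1 without control 49/52.

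Many adipogenic and lipid-handling genes fell: 15 of 31 were lower and 1 was higher (median -0.68), against 17.3% and 17.4% of all genes. Lpl, lipoprotein lipase, had 366, 595, 325, 519 and 536 CPM in the CAFs and 1710.5, 1441 and 1752 CPM in the NFs (log2 fold change -1.80, SE 0.38, adjusted p = 0.00120). Scd1, a fatty acid desaturase, had 162, 140.2, 125, 97.4 and 124 against 263, 262 and 317 CPM (log2 fold change -1.11, SE 0.20, adjusted p = 0.000314). Klf15, an adipogenic transcription factor, had 0.561, 0.690, 1.13, 0.500 and 0.302 against 4.60, 4.27 and 3.33 CPM (log2 fold change -2.67, SE 0.38, adjusted p = 3.67e-05). Pparg, the master regulator of fat cells, had 2.06, 4.83, 11.8, 9.50 and 7.03 against 30.3, 18.7 and 26.1 CPM (log2 fold change -1.83, SE 0.44, adjusted p = 0.00349). All CAF mice lay below all NFs in these 4 genes. With a mouse left out, the number up was 2 without mouse 23 or control 82/83, and the number down was 8 without control 44/46. In these bulk sums, fewer cells of a type and less RNA per cell cannot be told apart. Adipoq, a defining gene of mature adipocytes, was near 0 in both groups (0 to 0.0935 CPM in the CAFs and 0.129 to 0.340 CPM in the NFs). The 10 markers of that cell type, of which 8 were tested, summed to 9.59 to 43.2 CPM in the CAFs and 51.9 to 91.6 CPM in the NFs. Their part in the result was not tested.

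Many hormone receptors and their targets also fell, 11 of 20 against 0 that rose (median -0.70). Of all genes 17.3% fell and 17.4% rose. Nr3c2, the mineralocorticoid receptor, had 1.78, 1.79, 1.56, 3.50 and 2.95 CPM in the CAFs and 13.7, 12.8 and 10.7 CPM in the NFs (log2 fold change -2.42, SE 0.39, adjusted p = 0.000139). Thrb, a thyroid hormone receptor, had 6.83, 8.42, 4.45, 8.91 and 7.41 against 30.7, 24.7 and 23.8 CPM (log2 fold change -1.87, SE 0.32, adjusted p = 0.000212). Nr3c1, the glucocorticoid receptor, had 112, 107, 103, 117 and 76.6 against 207, 225 and 135 CPM (log2 fold change -0.88, SE 0.18, adjusted p = 0.00107). The groups were apart in all 3. Esr1, the estrogen receptor, did not pass, with 54.4, 113, 25.9, 58.1 and 52.3 against 95.5, 113 and 55.5 CPM (log2 fold change -0.53, SE 0.42, adjusted p = 0.331). After leaving out a mouse, the number down was 6 without control 49/52.

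Genes of progenitor and adventitial fibroblasts, the identity that CD26 marks, gave 5 up and 3 down of 25 (median 0.04), against 17.4% and 17.3% of all genes. Pi16 had 1826, 1175, 2353, 1666 and 2379 CPM in the CAFs and 1552, 2573 and 909 CPM in the NFs (log2 fold change 0.16, SE 0.60, adjusted p = 0.855). Cd34 had 1425, 1047, 1231, 1075 and 1336 against 999, 1524 and 790.5 CPM (log2 fold change 0.15, SE 0.50, adjusted p = 0.843). Both were abundant in all mice and overlapped. Mfap5 (log2 fold change 1.02, SE 0.25, adjusted p = 0.00374) and Dmkn, or dermokine (log2 fold change 2.27, SE 0.51, adjusted p = 0.00196; 2.88 without control 49/52), rose, and Creb5 fell (173, 177, 122, 105 and 135 against 353, 474 and 226 CPM; log2 fold change -1.30, SE 0.29, adjusted p = 0.00189). Ly6a, which encodes the progenitor surface protein Sca-1, rose (1037, 736, 800.4, 1214 and 1016 against 303, 502 and 199 CPM; log2 fold change 1.52, SE 0.54, adjusted p = 0.0341). The call of Ly6a was lost without mouse 67 (adjusted p = 0.0517), mouse 95 (0.0556), control 44/46 (0.0912) and control 82/83 (0.129). The number of members up was 3 without mouse 67 or control 44/46 or 82/83, and the number down was 1 without control 49/52.

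Of 37 transcription factors of mesenchymal cells 6 rose and 5 fell (median -0.11), shares no larger than the 17.4% and 17.3% over all genes. Runx1, a runt-domain factor (ENSMUSG00000022952, GRCm38 chr16:92601466-92826149), had 304, 218, 179, 245 and 189.8 CPM in the CAFs and 18.0, 27.1 and 31.9 CPM in the NFs (log2 fold change 3.15, SE 0.32, adjusted p = 1.22e-06). The homeobox genes Prrx2 (45.2 to 64.3 against 18.2 to 31.8 CPM; log2 fold change 1.11, SE 0.27, adjusted p = 0.00396) and Mkx, a tendon regulator (1.06 to 4.45 against 0.113 to 0.396 CPM; log2 fold change 3.21, SE 0.61, adjusted p = 0.000568; 3.97 without control 82/83), also rose, whereas Prrx1 did not pass (log2 fold change 0.42, SE 0.26, adjusted p = 0.206; adjusted p = 0.0282 without control 49/52). Leaving out mice, the number down was 1 without control 44/46 and 3 without mouse 67 or 95 or control 82/83.

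In the endoplasmic reticulum 10 of 26 folding and stress genes rose and 2 fell (median 0.31), against 17.4% and 17.3% of all genes. Pdia3, a disulfide isomerase, had 933, 1046, 905, 907 and 1006 CPM in the CAFs and 509, 435 and 641 CPM in the NFs (log2 fold change 0.86, SE 0.16, adjusted p = 0.000595). The chaperone Hspa5 did not pass (log2 fold change 0.16, SE 0.19, adjusted p = 0.538). With a mouse left out, the number up was 6 without control 49/52, and the number down was 1 without mouse 21, 23, 67 or 69 or control 49/52 or 82/83. Ribosome biogenesis genes, which include classical targets of Myc in other cells, gave 2 up and 2 down of 22 (median -0.19), a smaller share than over all genes. Ncl, nucleolin, had 366 to 451 against 354 to 552 CPM (log2 fold change -0.16, SE 0.24, adjusted p = 0.635). Npm1, nucleophosmin, had 317 to 409 against 213 to 333 CPM (log2 fold change 0.47, SE 0.22, adjusted p = 0.101; adjusted p = 0.0443 without control 82/83). After leaving out a mouse, the number up was 0 without mouse 67 or control 44/46 or 49/52, 1 without mouse 23, 69 or 95 and 5 without control 82/83, and the number down was 0 without control 49/52 or 82/83 and 1 without mouse 21, 23, 67 or 69 or control 44/46.

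Immune checkpoint and adenosine genes gave 4 up and 2 down of 18 (median 0.55), against 17.4% and 17.3% of all genes. Arg1, arginase-1, rose to 4.82, 0.828, 1.34, 3.77 and 3.02 from 0.354, 0.302 and 0.238 CPM (log2 fold change 3.18, SE 0.74, adjusted p = 0.00279). Cd276, or B7-H3, rose to 194, 207, 205, 148 and 151 from 110.0, 55.1 and 120.4 CPM (log2 fold change 0.93, SE 0.28, adjusted p = 0.0143). Entpd1, which breaks down extracellular ATP, fell to 10.6, 10.9, 5.87, 8.32 and 17.0 from 46.9, 20.7 and 59.7 CPM (log2 fold change -2.01, SE 0.41, adjusted p = 0.00112). Cd274, the ligand PD-L1, overlapped and did not pass (log2 fold change -0.77, SE 0.54, adjusted p = 0.271). The number of members down was 1 without mouse 21, 23, 69 or 95 or control 44/46 or 49/52.

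Genes listed as markers of other cell types were counted in both groups and are given as whole lists. The negative gates (EpCAM, CD49f, CD31 and CD45) were set against epithelial, endothelial and immune cells. No gate named here was set against pericytes, Schwann cells, skeletal muscle or adipocytes. The sums are over all listed members, tested or not. Over all genes tested, 17.4% rose and 17.3% fell. The shares of leukocyte and pericyte markers that rose were near the first of these. Levels differed widely within a list: Tek and Cd3e stood well above Cdh5 and Ptprc, so that a sum does not measure the share of a cell type. Endothelial markers had 8 lower and 1 higher of 14, and summed to 207 to 286 CPM in the CAFs and 281 to 604 CPM in the NFs, with the Tie2 receptor Tek at 79.3 to 158 and 153 to 447 CPM (log2 fold change -1.47, SE 0.33, adjusted p = 0.00211) and the endothelial cadherin Cdh5 at 0.0756 to 1.56 and 4.91 to 7.57 CPM. Leukocyte markers (3 up and 2 down of 17) summed to 27.1 to 264 CPM against 25.2 to 36.5 CPM, with Ptprc, which encodes the gated CD45, at 0.212 to 3.45 and 0.567 to 1.26 CPM. The T cell gene Cd3e, named after its values were seen, had 71.6, 221, 10.2, 13.0 and 39.1 against 4.89, 11.5 and 22.5 CPM (log2 fold change 2.46, SE 0.87, adjusted p = 0.0329; 1.37 without mouse 23 and 3.12 without control 82/83). The call of Cd3e was lost without mouse 23 (adjusted p = 0.161), control 44/46 (0.136) and control 49/52 (0.102). Epithelial markers (0 up and 2 down of 19) summed to 6.86 to 98.8 CPM in the CAFs and 60.7 to 135 CPM in the NFs, with Epcam at 0.0909 to 9.67 and 2.27 to 5.25 CPM. Pericyte markers (2 up and 2 down of 13) summed to 237 to 385 against 200.5 to 208 CPM, with Rgs5 at 2.23 to 11.3 and 4.38 to 7.73 CPM. Skeletal muscle markers (2 of 10 down, 0 up) summed to 6.23 to 11.2 against 20.0 to 76.0 CPM, with Ckm at 0 counts in all CAF mice and 0.0966 to 0.491 CPM in the NFs. Schwann cell markers (1 of 8 down, 0 up) summed to 309.6 to 405 against 262 to 400.2 CPM, with Sox10 at 0 to 3.32 and 0.453 to 2.29 CPM. The part of such cells in the results above was not tested. Of the endothelial markers, the number up was 0 without mouse 69 or control 49/52 or 82/83, and the number down was 5 without control 44/46. Of the leukocyte markers, the number up was 1 without control 49/52 and 5 without mouse 67, and the number down was 1 without mouse 69 or 95 or control 49/52. Of the mammary epithelial and carcinoma markers, the number down was 1 without control 44/46 or 49/52 and 4 without mouse 23. Of the pericyte and vascular smooth muscle markers, the number up was 1 without mouse 67 or control 44/46 or 82/83. Of the skeletal muscle markers, the number down was 1 without control 82/83. Of the Schwann cell markers, the number down was 0 without mouse 21, 67, 69 or 95 or control 44/46 or 49/52. Of the mature adipocyte markers, the number down was 0 without control 49/52 and 1 without mouse 21 or 95 or control 44/46 or 82/83.

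Genes that report on RNA quality and on dissociation were also counted. Of 10 mitochondrially encoded genes 2 rose and 0 fell (median 0.49). Of 21 immediate-early and heat-shock genes 1 rose and 2 fell (median -0.10). Over all genes 17.4% rose and 17.3% fell, so both shares of this second list lay below the background. The gene that rose was Ier3, a stress-induced survival gene (1326, 1022, 722, 679.5 and 968 against 129, 206 and 247 CPM; log2 fold change 2.28, SE 0.28, adjusted p = 7.37e-06). Fosl2, an AP-1 subunit, fell (log2 fold change -1.17, SE 0.23, adjusted p = 0.000812). Of the mitochondrially encoded genes, the number up was 1 without control 44/46 or 82/83. Of the immediate-early and heat-shock genes that tissue digestion can induce, the number down was 1 without mouse 21, 23, 69 or 95 or control 44/46, 49/52 or 82/83.

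To see where CD26-positive fibroblasts differed from CD26-negative ones, the CAF-NF difference was compared with that in the CD26-negative fibroblasts of the same mice. By this test of the difference, 46 genes (0.277% of those tested) had a higher and 143 (0.861%) a lower CAF-NF difference in the CD26-positive cells. Since the same mouse gave both classes of cell, the test was also run as a paired fit with mouse as a block, which gave 179 higher and 345 lower. Higher and lower, the unpaired counts without control 44/46 were 5 and 35, 17 and 80 without mouse 21, 21 and 88 without mouse 23, 20 and 70 without control 49/52 and 14 and 57 without control 82/83. Without the 8x8 mice they were 19 and 102.

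Among the genes with a lower difference were genes of mural cells, the pericytes and smooth muscle cells of vessel walls. Rgs5, a pericyte regulator of G-protein signalling, had 1301 to 4157 CPM in CD26-negative CAFs against 15.5 to 38.8 CPM in CD26-negative NFs, but 2.23 to 11.3 against 4.38 to 7.73 CPM in the CD26-positive cells (difference of log2 fold changes -6.20, SE 0.76, adjusted p = 0.000183). Myh11 had 61.8 to 249 against 11.3 to 28.1 CPM in CD26-negative cells (difference of log2 fold changes -6.26, SE 0.70, adjusted p = 0.000153). Notch3, a receptor of mural cells, had 283 to 1326 against 98.3 to 122 CPM there and fell in the CD26-positive CAFs (10.1, 21.0, 35.1, 7.50 and 15.9 against 61.2, 44.1 and 72.5 CPM; log2 fold change -1.73, SE 0.45, adjusted p = 0.00583; difference of log2 fold changes -4.37, SE 0.68, adjusted p = 0.00129). Myl9, a myosin light chain, differed in the same direction (difference of log2 fold changes -2.04, SE 0.33, adjusted p = 0.00169). Serpine2 was higher in the CAFs of both classes, with the smaller difference in the CD26-positive cells: CD26-negative CAFs and NFs had 624 to 2531 and 21.8 to 35.0 CPM (difference of log2 fold changes -3.08, SE 0.46, adjusted p = 0.000930). Adamts16, a metalloproteinase, had 15.8 to 98.9 and 0.0662 to 0.217 CPM in CD26-negative CAFs and NFs, and 17.3 to 66.7 and 17.8 to 78.0 CPM in the CD26-positive cells (difference of log2 fold changes -8.46, SE 1.05, adjusted p = 0.000183; -9.42 without control 82/83). The growth factor Pdgfc (difference of log2 fold changes -2.94, SE 0.49, adjusted p = 0.00242) and the receptor chain Il13ra1 (difference of log2 fold changes -2.50, SE 0.31, adjusted p = 0.000183) also had lower differences. Both rose in the CD26-positive CAFs as well (Pdgfc log2 fold change 1.12, SE 0.33, adjusted p = 0.0132; Il13ra1 log2 fold change 1.11, SE 0.22, adjusted p = 0.000858). The call of Pdgfc was lost without control 44/46 (adjusted p = 0.0781) and control 82/83 (0.0645).

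**Figure D5:**
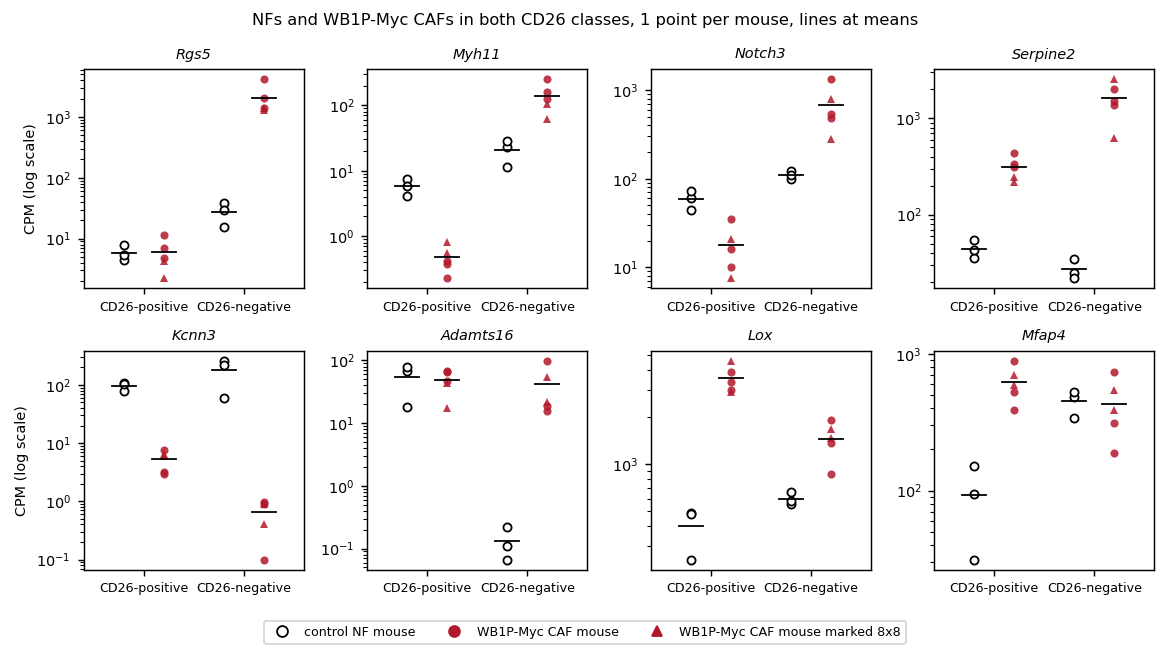
CPM (y axis, log scale) of 8 genes in CD26-positive and CD26-negative NFs (open) and WB1P-Myc CAFs (filled), 1 point per mouse with lines at the group means. Rgs5 and Myh11 are higher in CAFs than in NFs in the CD26-negative cells and not in the CD26-positive cells, and Lox is higher in the CAFs of both classes, with the larger difference in the CD26-positive cells.

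Genes with a higher difference in CD26-positive cells included Lox. In the CD26-negative cells it had 554 to 666 CPM in NFs and 870.3 to 1912 CPM in CAFs, a smaller step than in the CD26-positive cells (difference of log2 fold changes 1.87, SE 0.35, adjusted p = 0.00731). Mfap4 had 339.9 to 524 CPM in CD26-negative NFs and 189.8 to 732 CPM in CD26-negative CAFs, which overlapped (difference of log2 fold changes 2.81, SE 0.59, adjusted p = 0.0172). Aass, an enzyme of lysine breakdown, rose in the CD26-positive CAFs (25.4, 38.2, 12.5, 10.7 and 12.8 against 2.19, 1.28 and 1.66 CPM; log2 fold change 3.54, SE 0.52, adjusted p = 5.34e-05; difference of log2 fold changes 3.11, SE 0.68, adjusted p = 0.0235). The ligand Wnt2 (difference of log2 fold changes 2.21, SE 0.51, adjusted p = 0.0355) and the water channel Aqp1 (difference of log2 fold changes 3.69, SE 0.75, adjusted p = 0.0142) also had higher differences. Between CD26-positive CAFs and NFs neither passed (log2 fold changes 0.31 and 0.46, adjusted p = 0.522 and 0.513). Wnt2 had 6.17 to 18.9 CPM in CD26-negative CAFs and 22.1 to 62.1 CPM in CD26-negative NFs. Kcnn3, a calcium-activated potassium channel, was lower in the CAFs of both classes, with 2.90, 6.40, 3.25, 6.09 and 7.56 against 107, 78.2 and 104 CPM in the CD26-positive cells (log2 fold change -4.20, SE 0.52, adjusted p = 8.26e-06) and 0.0990 to 0.979 against 59.9 to 259.8 CPM in the CD26-negative cells (difference of log2 fold changes 3.98, SE 0.79, adjusted p = 0.0119). These higher differences lost their calls when single mice were left out. Lox lost it without control 44/46 (adjusted p = 0.0509) and Mfap4 without control 44/46 (adjusted p = 0.131). Aass lost it without mouse 21 (adjusted p = 0.0752), control 44/46 (0.0683), control 49/52 (0.220) and control 82/83 (0.0905), with a difference of 2.46 without control 49/52. Wnt2 lost it without mouse 23 (adjusted p = 0.0599), mouse 67 (0.0604), mouse 95 (0.0508), control 44/46 (0.247) and control 82/83 (0.180). Aqp1 lost it without control 44/46 (adjusted p = 0.118) and control 82/83 (0.0627), and Kcnn3 without control 44/46 (adjusted p = 0.134) and control 82/83 (0.0869).

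The tumor models themselves were compared by setting the WB1P-Myc CD26-positive CAFs against those of 4 mice with WB1P tumors, which lack the Myc transgene. No gene passed in edgeR (0.0% of 16601), while 638 genes had p under 0.05 before adjustment and DESeq2 called 4 higher and 5 lower. The median absolute log2 difference between the tumor models was 0.171, against 0.521 between WB1P-Myc CAFs and NFs. In the WB1P CAFs, Lox had 5119.6, 3934, 3209 and 4638 CPM, Col8a1 1080.0, 1136, 1072 and 1398 CPM, Chl1 306, 405, 559 and 631 CPM and Lamc3 0.905, 0.292, 1.98 and 0.448 CPM (mice 12, 14, 35 and 93), on the CAF side of the NFs in each gene. Before adjustment, 279 of the 16601 genes were higher and 359 lower at p under 0.05 in WB1P-Myc over WB1P CAFs. The glycolysis and hypoxia list had a median log2 difference of -0.45, with 7 of 27 members lower and 0 higher at that level. The interferon list had a median of 0.47, with 3 of 34 higher and 0 lower. The epithelial and carcinoma markers had the larger median of -1.90, with 7 of 19 lower and 0 higher. The median over all genes was -0.009.

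Among the WB1P-Myc CAFs, no gene passed in edgeR between the 2 mice marked 8x8 and the 3 without the mark (0.0% of 17169). Before adjustment 587 genes had p under 0.05, and DESeq2 called 4 higher and 2 lower. The cell cycle list had a median log2 difference of 0.78 in the marked mice and the interferon list one of 0.82, against -0.015 over all genes. The summed cell cycle level was 1211 and 1291 CPM in the marked mice 23 and 69 and 569, 859 and 893 CPM in mice 21, 67 and 95, so that both marked mice lay above the others. The interferon sum did not separate them in that way, with 2332 and 8142 CPM against 2410.5, 1919 and 5348 CPM.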

How the data were processed

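RNA of FACS-sorted mammary fibroblasts was measured by bulk RNA sequencing. Per the labels, the submitters' processing notes name HISAT2 (version 2.2.1) and the GRCm38 build; the counting tool, its use of strand and the annotation are not given in the sources used here. The authors deposited raw counts per gene for 44 libraries in 1 table. From these, the counts of each mouse were summed over its CD26-positive sorts (titles CD26+ and +/+) and, separately, over its CD26-negative sorts, so that the mouse was the replicate; a control with 2 mouse numbers counted as 1. No 2 libraries of a group agreed within sampling noise (lowest chi-square per degree of freedom 3.26 over 43 pairs). Where a symbol had several identifiers, the one with the most counts was used. Totals were 13478479 to 24000705 counts in the CAF sums and 25193924 to 29498005 in the NF sums, and counting intervals and bounds cover counting error only.

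All 25 sums entered an edgeR fit (version 4.0.16, R 4.3.3, limma 3.58.1; filterByExpr, TMM, robust quasi-likelihood) with 1 mean per group. P-values were adjusted by the Benjamini-Hochberg method over all genes tested and called at 0.05, and for the larger set also past a log2 fold change of 2. The comparisons of CAFs with NFs and of the tumor models were tested on simulated data. That simulation drew the sums independently and changed only a small set of genes, which differs from these data. CPM values use TMM library sizes. The CD26 classes of 1 mouse deviated together (r 0.312 to 0.668, median 0.473, 8 pairs), so the comparison of classes was repeated with mouse as a replicate block. Other alternatives were DESeq2 (version 1.42.0), its size factors, no filter, only the groups compared, single sorts, and leaving out each mouse or both 8x8 mice.

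The comparison, its members and the gene lists were chosen with earlier results of these data known. Genes were named by rule: Dpp4 and En1; the 10 largest called changes in each direction without overlap where the higher group reached 10 CPM; of each list its first 3 genes, the 4 with the lowest adjusted p and the most abundant that did not pass; and the 4 largest changes in each direction of the other comparisons with their called list members. Members named to complete a count are marked so. Of the 293 genes this rule selects 185 are described, chosen among them after their values were seen, and the others are not reported here singly. Promoter windows were taken from RefSeq and scanned in Python (version 3.11.15).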

Additional observations from a re-analysis of the deposited data

Results flagged for a closer look

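Among the 5 WB1P-Myc mice, 1 mouse was flagged against the other 4 in the CD26-positive level of 18 named genes, by Dixon's test at the 95% level. Chance alone triggers it in about 1 in 20 groups. The test was run gene by gene without adjustment, so that a number of these flags are expected by chance. Mouse 23, marked 8x8, had Nos2 at 236 CPM, Saa3 at 544 CPM, Cemip at 522 CPM, Myh4 at 0.0460 CPM, Csn2 at 0.276 CPM, Csn1s1 at 0.322 CPM and Hp at 42.7 CPM. In mouse 69, also marked 8x8, the levels were Kcnj15 at 48.3 CPM, Mmp3 at 1349 CPM, Rsad2 at 126 CPM, Ifi44 at 92.2 CPM and Mkx at 4.45 CPM. Mouse 95 had Chl1 at 187 CPM, Nos1 at 0 CPM and Fcgbp at 1.06 CPM. Mouse 21 had Dcn at 3503 CPM and Map2 at 0.281 CPM. Mouse 67 had Spp1 at 459 CPM. The Myh4 value rests on 1 count in mouse 23 and none in the other 4 mice, and that of Nos1 on 0 counts in mouse 95 against levels of at most 0.354 CPM in the others, so neither is read as an outlying mouse.

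The CAF-NF difference was tested for a difference between CD26-positive and CD26-negative fibroblasts by the interaction term of the edgeR fit, and 14 named genes passed. The difference of log2 fold changes was positive, so higher in the CD26-positive cells, for Kcnn3 at 3.98, Aqp1 at 3.69, Aass at 3.11, Mfap4 at 2.81, Wnt2 at 2.21 and Lox at 1.87. It was negative for Adamts16 at -8.46, Myh11 at -6.26, Rgs5 at -6.20, Notch3 at -4.37, Serpine2 at -3.08, Pdgfc at -2.94, Il13ra1 at -2.50 and Myl9 at -2.04.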

How the results depend on the processing

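Depth did not limit the abundant genes, but genes with no count in a group were read as bounds and those with 1 to 3 counts by a ratio with its counting interval, and 5 mice against 3 limit what any single value can show. The numbers of genes past a log2 fold change of 2 in CD26-positive CAFs stayed within 1.5-fold of 628 up and 599 down under every alternative run, from 464 up and 454 down with single libraries and mouse as a replicate block and 492 and 417 with only the 2 groups in the fit to 652 and 630 with the DESeq2 Wald test and 626 and 690 with no filter on low counts; without single mice they ranged from 507 to 656 up and 512 to 629 down. Pairing the CD26 classes by mouse as a replicate block gave 179 higher and 345 lower differences between the classes, against 46 and 143 without it. For the same differences the DESeq2 Wald test gave 119 and 295, no filter on low counts 23 and 87, and leaving out the 8x8 mice 19 higher; leaving out single mice gave 5 to 59 higher and 35 to 162 lower. WB1P-Myc against WB1P CAFs had 4 higher and 5 lower genes with the DESeq2 Wald test, and the 8x8 mice against the others 4 and 2; leaving out single mice gave 0 to 2 higher in the latter, where a lone 8x8 mouse was assumed to vary like the other groups. The cause was not tested.

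For the named genes, 2867 alternative values kept the sign and the side of the threshold, 129 lost a call, 48 gained one and 41 changed sign. Without single mice the log2 fold changes of genes that changed sign ran for Dpp4 from -0.68 to 0.094, Thbs1 from -0.23 to 0.76, Has2 from -0.30 to 0.15, Mmp2 from -0.015 to 0.13, Pi16 from -0.13 to 0.62, Cd34 from -0.044 to 0.47, Hk2 from -0.17 to 0.26, Ncl from -0.27 to 0.036, Vegfa from -0.056 to 0.51, Epcam from -0.96 to 0.14, Rgs5 from -0.34 to 0.29 and Adamts16 from -0.59 to 0.19. Signs also changed in the En1-negative libraries Pdgfra at 0.041, Pi16 at -0.056, Rgs5 at -1.12 and Sox10 at -0.69; in the double-positive libraries Thbs1 at -0.014 and Epcam at 0.25; without the 8x8 mice Thbs1 at -0.013, Has2 at 0.061, Epcam at 0.24 and Adamts16 at 0.15; with the DESeq2 Wald test Hk2 at -0.010 and Rgs5 at -0.012; with DESeq2 size factors Hk2 at -0.010 and Rgs5 at -0.025; with single libraries and mouse as a replicate block Hk2 at -0.14, Rgs5 at -0.16 and Sox10 at -0.97. None of these genes had passed in the comparison of CAFs with NFs. Of the counts of list members that rose or fell, 993 stayed within 1.5-fold of their value and 223 moved further. Fibrillar collagens that rose, for example, numbered 1 with only the 2 groups in the fit and 7 with mouse as a replicate block, against 3.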
